A study of Bos taurus with 6 samples.

Results

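Imprinted genes are transcribed mainly from the copy inherited from 1 parent, and several of their loci also hold genes for miRNAs, short RNAs that repress messenger RNAs through base pairing. The miRNAs described here belong to 4 such loci. MiR-335 lies in MEST, a paternally expressed gene of growing mesodermal tissue. MiR-296 and miR-298 lie beside GNAS, which encodes the stimulatory G protein subunit that couples the receptors of both gonadotropins to cyclic AMP. MiR-483 lies in IGF2, which encodes a growth factor made in the ovarian follicle, and miR-675 is cut from the noncoding RNA H19.

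The members were chosen by name, as every mature bovine miRNA called miR-335, miR-296, miR-298, miR-483 or miR-675, either arm. The only measured value in this choice was the size of the precursor row, since the largest row of each mature name was taken. Each member had 1 row, so that step selected nothing. The set was put forward when the differences of bta-miR-335 and bta-miR-296 between the follicle types were already known, and those differences are therefore no independent support for one another. The rule gave 3 members of 755 mature names, bta-miR-335, bta-miR-296 and bta-miR-483. Bta-miR-298 and bta-miR-675 were not analysed here.

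The samples were granulosa cells, the somatic cells that line the follicle and convert androgens to estradiol, from Simmental heifers slaughtered on day 19 of the estrous cycle. All heifers had been synchronized with a prostaglandin analogue and a gonadotropin-releasing hormone analogue, and follicles were sorted by surface diameter into preovulatory dominant and subordinate ones. RNA was pooled into 3 libraries per follicle type. The dominant pools rest on far fewer follicles than the subordinate pools, from the same animals, so a dominant library may hold very few follicles and the spread between libraries can differ in kind between the groups. With 1 value per mature name, the dominant libraries held between 190385 and 311842 reads and the subordinate libraries between 306932 and 364125. In normalized read counts (CPM, reads scaled to a common library size with TMM factors), 3 reads were worth between 8.86 and 13.9 CPM. A smaller value was taken as too low to judge, a level that was chosen and not tested. Read intervals below cover counting error only, because PCR copies were not marked.

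All 3 members were matched by precursor name, among the listed synonyms, to the RefSeq gene table of the assembly ARS-UCD2.0. MIR335 lay within the span of MEST, between CEP41 and COPG2. MIR483 lay within the span of IGF2, with INS as the next gene on 1 side. MIR296 did not lie within GNAS itself but within the noncoding gene LOC107133071, and the gene just before it was another miRNA gene, MIR6123. The table lists gene spans only, so exons and introns were not read from it, and its coordinates are not given because the reads were mapped to another build, UMD3.1.

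The comparison set granulosa cells of preovulatory dominant follicles against those of anovulatory subordinate follicles. The subordinate follicles are smaller, and the paper describes them as undergoing atresia, the regression of a follicle. Final growth, regression and follicle size therefore go together in this contrast and cannot be told apart. Bta-miR-335 and bta-miR-296 were lower in dominant follicles, by about 19.6-fold and 5.31-fold in the fitted values. Bta-miR-483 had too few reads in either follicle type to be judged. Differential expression was tested with edgeR's quasi-likelihood test over 353 miRNAs, and a call required a log2 fold change of 1 or more in either direction, p up to 0.05 and an adjusted p (false discovery rate) up to 0.1. All 3 members passed the detection rule of at least 1 read in at least 2 replicates of a group. Of them, 2 were called lower and 1 was not called. Of all miRNAs tested, 21.5% were called and 9.63% were called lower in dominant follicles. The share of miRNAs whose libraries do not overlap between the follicle types was not counted. Bta-let-7b, bta-miR-25, bta-miR-103 and bta-miR-31, which were not called, also separate the follicle types. A lack of overlap, given below for bta-miR-335 and bta-miR-296, is therefore not particular to them. The calls were 42 higher and 34 lower, and they became 47 higher and 23 lower when libraries were scaled by total count alone, which moved the log2 fold changes by a median of 0.20. Some mature names had the same values in every library, such as bta-miR-129 and bta-miR-129-5p, both called higher. These counts and shares are therefore of names, not of separate measurements. Without dominant replicate 1, 22 of 338 miRNAs were called lower.

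**Figure D1:**
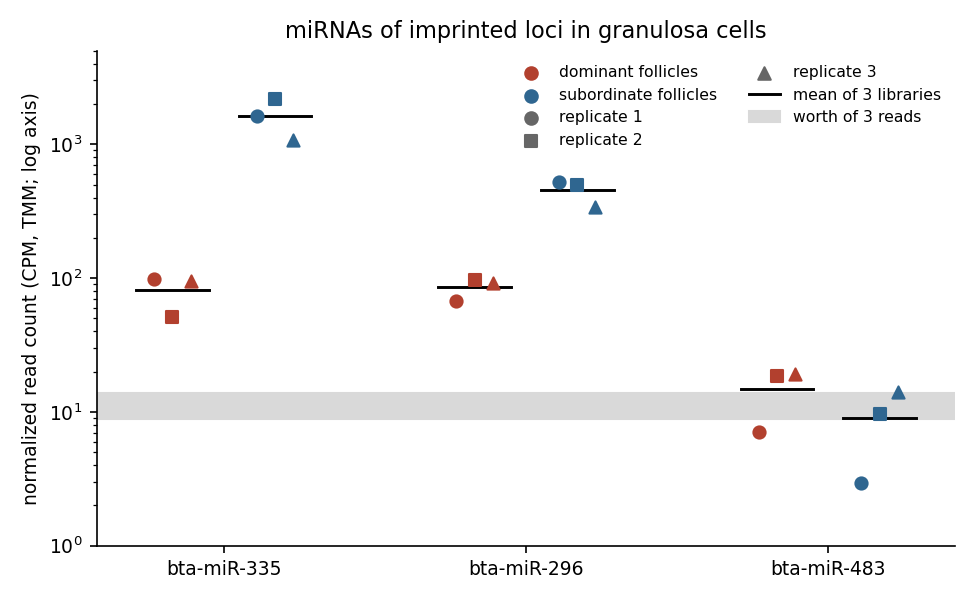
Normalized read count (CPM with TMM factors, log axis) of each member in each of the 6 libraries, with the mean of 3 libraries as a bar and the worth of 3 reads as a grey band. Bta-miR-335 lies between 51.0 and 98.8 CPM in dominant and between 1073 and 2196 CPM in subordinate follicles, bta-miR-296 shows a smaller gap, and bta-miR-483 sits around the grey band in both.

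Bta-miR-335 had 28, 11 and 30 reads in dominant replicates 1, 2 and 3. In subordinate replicates 1, 2 and 3 it had 550, 679 and 304 reads. Every subordinate library was thus above every dominant library, and the lowest subordinate value was 10.9 times the highest dominant value after normalization. The smallest count, 11 reads in dominant replicate 2, has an exact Poisson interval (95%) of 5.49 to 19.7 reads.

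In CPM, bta-miR-335 averaged 81.8 ± 26.7 (SD, n = 3) in dominant and 1631 ± 562 (SD, n = 3) in subordinate follicles. The SD was 32.6% of the mean in dominant and 34.4% in subordinate follicles. Both include counting error, which weighs more at the low dominant counts, so they do not compare the spread between pools alone. At the mean subordinate level, the dominant libraries would have held 462, 352 and 512 reads in place of the 28, 11 and 30 counted. The log2 fold change was -4.29 (SE 0.37, 95% interval -5.13 to -3.45, edgeR quasi-likelihood adjusted p = 8.15e-05). Across 13 alternatives in filtering, scaling, test and libraries left out, it ran from -4.52 to -4.02 and was called in each. In bulk RNA, fewer cells that hold a miRNA and less of it per cell cannot be told apart, here or for any value that follows.

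The place of bta-miR-335 among the miRNAs of a library changed accordingly. By reads it held ranks 53, 48 and 67 in the subordinate libraries. In the dominant libraries it held ranks 152, 174 and 156, although fewer names had a read there. Its share of reads was 0.167, 0.186 and 0.0990% in the subordinate libraries. In the dominant libraries the share was 0.0108, 0.00578 and 0.00962%, and no exact binomial interval of a dominant library reached above 0.0156%.

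Among the 353 fitted log2 fold changes, that of bta-miR-335 was the third most negative. The 2 below it were bta-miR-409a, with no read in dominant and 3, 3 and 4 reads in subordinate libraries, and bta-miR-1434-5p, with no read in dominant and 3, 2 and 4 in subordinate libraries. A fitted value against groups without reads depends on the count that the fit adds, and DESeq2 gave no adjusted p for either. Among the 194 miRNAs whose reads averaged 10 or more, bta-miR-335 was the most negative. The median of all 353 log2 fold changes was -0.20, and that of the 34 miRNAs called lower was -1.83.

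**Figure D2:**
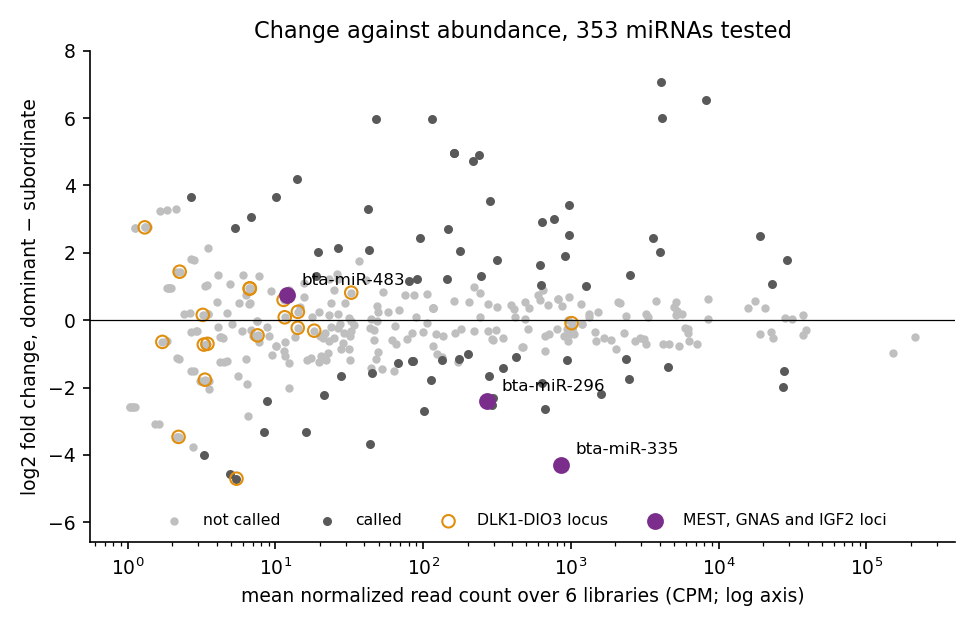
Log2 fold change (dominant minus subordinate) against mean CPM over 6 libraries on a log axis, 1 point for each of the 353 miRNAs tested, with called miRNAs in dark grey, miRNAs of the DLK1-DIO3 locus ringed and the 3 members in purple. Bta-miR-335 is the lowest point above 10 CPM at -4.29, bta-miR-296 lies at -2.41 in the same abundance range, and bta-miR-483 lies at 0.74 among the sparse miRNAs.

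Bta-miR-296 had 19, 21 and 29 reads in dominant replicates 1, 2 and 3. The subordinate replicates held 178, 153 and 97 reads. The groups did not overlap, and the lowest subordinate value was 3.51 times the highest dominant value after normalization. In CPM the means were 85.6 ± 16.3 (SD, n = 3) in dominant and 454 ± 98.2 (SD, n = 3) in subordinate follicles.

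The log2 fold change of bta-miR-296 was -2.41 (SE 0.28, 95% interval -3.05 to -1.77, edgeR quasi-likelihood adjusted p = 0.000426). It ran from -2.57 to -2.21 over 13 alternatives and was called in each. It was the sixth most negative value among the same 194 miRNAs. At the mean subordinate level, 129, 97.9 and 143 reads of bta-miR-296 would have been counted in the dominant libraries.

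The members bta-miR-335 and bta-miR-296 were close to each other in dominant follicles, at 69 reads in all for each, but not in subordinate follicles, where they had 1533 and 428 reads. Their ratio within a library needs no scaling between libraries. Bta-miR-335 had 1.47, 0.524 and 1.03 times the reads of bta-miR-296 in dominant replicates 1, 2 and 3. In the subordinate replicates it had 3.09, 4.44 and 3.13 times as many. The log2 ratio, with 1 read added to both, averaged -0.097 ± 0.72 (SD, n = 3) in dominant and 1.80 ± 0.30 (SD, n = 3) in subordinate follicles. The difference of -1.90 on the log2 scale had the smallest p that 3 libraries against 3 allow (exact permutation test, two-sided, p = 0.1). Bta-miR-335 was thus lower in dominant follicles by a larger factor than bta-miR-296 in every comparison of a dominant with a subordinate library. The ratio restates the difference between the fold changes of these members (-1.88 in the fit), known beforehand, so its p is no independent support. It is a ratio of read counts of differently captured molecules, so it does not give the ratio of the molecules in the cell.

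Bta-miR-483 had 2, 4 and 6 reads in dominant and 1, 3 and 4 reads in subordinate libraries. Dominant replicate 1 and subordinate replicate 1 were below 3 reads, and the groups overlapped. In CPM the means were 14.9 ± 6.80 (SD, n = 3) and 8.92 ± 5.62 (SD, n = 3), so both lie near the level that 3 reads are worth. The log2 fold change of 0.74 (SE 0.70, edgeR quasi-likelihood adjusted p = 0.467) had a 95% interval of -0.86 to 2.33. As a ratio of dominant to subordinate follicles, that interval runs from 0.553 to 5.02. A fold change as large as that of bta-miR-296 in the same direction lies outside it, whereas a moderate change either way could not be detected at this depth. At the mean subordinate level, 2.53, 1.92 and 2.80 reads would have been counted in the dominant libraries. Over the 12 alternatives that kept bta-miR-483, the value ran from 0.31 to 1.20 and was never called. A stricter filter, of 10 or more reads in 3 or more libraries, removed it.

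**Figure D3:**
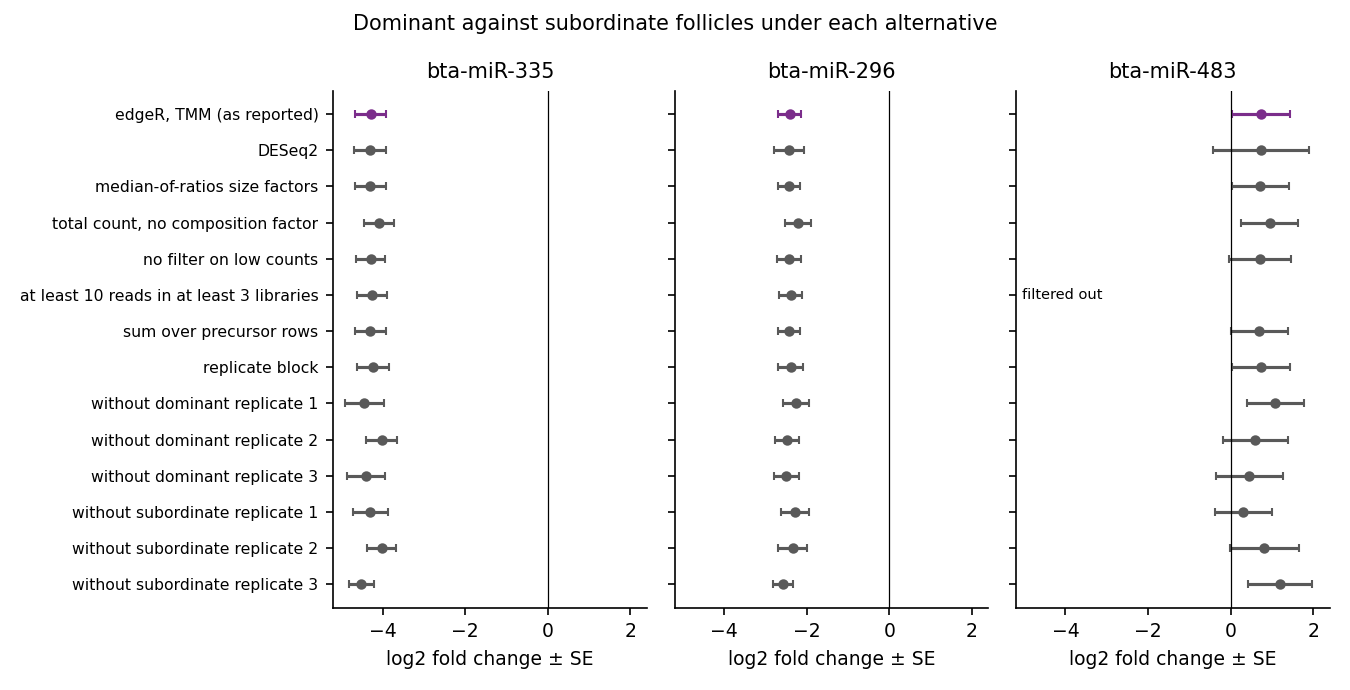
Log2 fold change (dominant minus subordinate) with its standard error for each member under the reported fit and under each alternative, 1 line per alternative. Bta-miR-335 stays between -4.52 and -4.02 and bta-miR-296 between -2.57 and -2.21. Bta-miR-483 has errors that span a large part of its distance from 0 and in several fits cross it, and no value under the strictest filter.

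The miRNA of the gene listed just before MIR296 in the RefSeq table, MIR6123, was also measured. It was taken up by its position, after the values had been seen, and no test of it was planned. Bta-miR-6123 had 220, 179 and 264 reads in dominant and 217, 182 and 156 reads in subordinate replicates 1, 2 and 3. It was not low in dominant follicles, where it averaged 816 ± 34.5 CPM (SD, n = 3) against 593 ± 45.3 CPM (SD, n = 3) in subordinate follicles. Every dominant library lay above every subordinate library, but the log2 fold change of 0.46 (SE 0.18, edgeR quasi-likelihood adjusted p = 0.108) was not called. The log2 ratio of bta-miR-296 to bta-miR-6123 within a library averaged -3.21 ± 0.23 (SD, n = 3) in dominant and -0.40 ± 0.24 (SD, n = 3) in subordinate follicles. The difference of -2.81 is given as a description with no test, because the miRNAs separated the follicle types in opposite directions and their ratio therefore had to separate them too. The table does not give strands, and whether the miRNAs share a primary transcript was not tested.

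The profiles nearest to that of bta-miR-335 mostly spanned a smaller range. Likeness was measured as the root-mean-square difference over the 6 libraries between log2 CPM profiles, each centred on its own mean, among the other 193 of those miRNAs. The nearest to bta-miR-335 was bta-miR-1296 at 0.87, against a median of 2.19 for all 193. Bta-miR-296 was the second nearest at 1.05, followed by bta-miR-449a, bta-miR-6526 and bta-miR-92a at 1.08, 1.09 and 1.22. All 5 were called lower, with log2 fold changes between -3.69 and -1.97. The -3.69 (SE 0.88) is that of bta-miR-449a, with only 2, 0 and 3 reads in dominant and 52, 8 and 19 reads in subordinate libraries. It averaged 10 reads or more only through the subordinate libraries, so its distance is uncertain. The same holds for the nearest, bta-miR-1296, with 11, 4 and 7 reads in dominant and 74, 61 and 33 reads in subordinate libraries. Bta-miR-449a belongs to the miR-34 seed family, and bta-miR-92a to the miR-17-92 gene cluster that promotes proliferation.

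Bta-miR-296 had closer neighbours in profile. Bta-miR-92a was nearest at 0.31, with a median of 1.26 over all 193. It was followed by bta-miR-769 at 0.35, bta-miR-378b at 0.40, bta-miR-20a at 0.41 and bta-miR-6526 at 0.42, and these 5 were also called lower. Bta-miR-20a is another member of the miR-17-92 gene cluster. Seen from bta-miR-296, bta-miR-335 was only the 64th nearest profile. These distances come from libraries of only 2 follicle types, so they rest mainly on the size of the difference between the types.

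**Figure D4:**
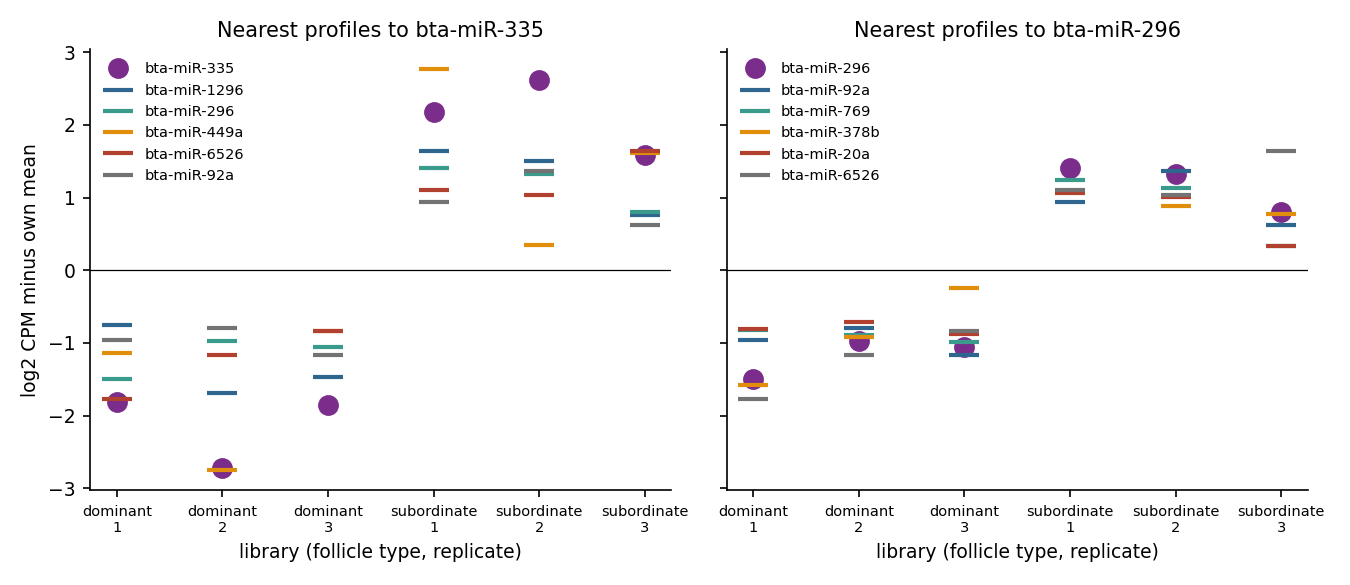
Log2 CPM minus its own mean in each of the 6 libraries for bta-miR-335 (left) and bta-miR-296 (right), as purple points, with the 5 nearest profiles of each as coloured bars. The points of bta-miR-335 lie farther from 0 than most bars, except that bta-miR-449a lies farther out in 3 libraries and bta-miR-6526 in 1, whereas those of bta-miR-296 lie among the bars in every library but subordinate replicate 1, where the point is above all 5. In dominant replicate 2 bta-miR-449a had 0 reads, so its bar there depends on the count added before taking logs.

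The other large group of imprinted miRNAs, that of the DLK1-DIO3 locus, was taken as a list of numbers for comparison. It held 55 mature names, of which 23 had no read in any library and 19 could be tested. Of the 19, 1 was called lower, bta-miR-409a with the counts given above, and 0 were called higher by edgeR. The fitted values were negative for 10 and positive for 9 miRNAs, with a median of -0.09 against -0.20 for all miRNAs tested. The list is sparse, and bta-miR-127 alone averaged 10 reads or more. Bta-miR-127 had 269, 216 and 309 reads in dominant and 217, 254 and 471 reads in subordinate libraries, and its log2 fold change of -0.09 (SE 0.34, edgeR quasi-likelihood adjusted p = 0.855) was not called. The sign of that value became positive under total-count scaling, with the replicate block and without subordinate replicate 3. The groups of bta-miR-127 overlapped.

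Markers of other cells were read from lists of miRNA names. The 7 names of the blood cell list summed to between 1305 and 14205 CPM in dominant libraries (median 8900) and between 1366 and 2029 CPM in subordinate libraries (median 1937). Of the 6 tested, 2 were called higher in dominant follicles, the erythroid bta-miR-451 and bta-miR-486, and both calls were lost without dominant replicate 1, dominant replicate 2 or subordinate replicate 3 (adjusted p between 0.119 and 0.157, edgeR). Dominant replicate 3 had the lowest blood sum of all libraries, 1305 CPM, and held bta-miR-335 at 95.5 and bta-miR-296 at 92.3 CPM, between the values of the other dominant replicates. The endothelial bta-miR-126-5p and bta-miR-126-3p summed to between 73.2 and 293 CPM in dominant and between 354 and 540 CPM in subordinate libraries. Neither was called in this fit (adjusted p = 0.113 and 0.105, edgeR), though DESeq2 and 2 other filters called both.

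Of the 7 theca and stroma names, all tested, 1 was called lower, bta-miR-214. The log2 fold changes of all 7 were negative, with a median of -0.53. That call was lost under total-count scaling, without dominant replicate 1 and without subordinate replicate 3. The list summed to between 18691 and 28823 CPM in dominant and between 21987 and 36786 CPM in subordinate libraries, so the groups overlapped. Bta-miR-199a-3p and bta-miR-199c had the same counts in every library and are not separate measurements. The gonadal bta-miR-202 was higher in dominant follicles, at 45237 ± 1632 CPM (SD, n = 3) against 13033 ± 1936 CPM (SD, n = 3). The part of these cell types in the differences of bta-miR-335 and bta-miR-296 was not tested.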

How the data were processed

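The authors made libraries with the TruSeq small RNA kit, used Cutadapt and Seqtk to clip adapters and drop reads that were short or of low quality, aligned what was left with Bowtie to the bovine genome (UMD3.1 per the labels) and counted known miRNAs of miRBase with the miRDeep2 workflow. The deposited values are raw read counts, 906 rows per library for 755 mature names, and the largest precursor row of each name was used. Sequences were not used here.

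The members and lists were chosen with earlier results of these data known. The members were every name with miR-335, miR-296, miR-298, miR-483 or miR-675. Also named were the 5 nearest profiles of bta-miR-335 and bta-miR-296, and of a DLK1-DIO3 list the called miRNAs and the most abundant one. MiRNAs sharing a seed with a member were to be named too, which was not done without sequences. The RefSeq neighbour, the pair with more negative fitted values than bta-miR-335 and single markers were named after their values were seen.

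Counts were tested with edgeR 4.0.16 (R 4.3.3), TMM factors and follicle type as the only term, with Benjamini-Hochberg adjustment over all miRNAs with at least 1 read in at least 2 replicates of a group. Standard errors were obtained from each fold change and its F statistic. The script was tested on simulated data. Alternatives were DESeq2 1.42.0, other scalings and filters, summed precursor rows, a false discovery rate of 0.05, the replicate block and each library left out. Deviations from the group means correlated at r = 0.14, 0.38 and 0.41 over 194 miRNAs between libraries numbered 1, 2 and 3. Libraries with different numbers gave r from -0.42 to 0.19, so the pairs numbered 2 and 3 lie above that range and the pair numbered 1 lies within it. The labels number replicates alike in both groups, and the numbers were taken as pairs in the replicate block only. Where nothing ties pools to separate animals, p-values measure the spread between these libraries. Other steps used Python 3.11.15, scipy 1.17.1 and matplotlib 3.10.9.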

Additional observations from a re-analysis of the deposited data

How the results depend on the processing

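The directions and calls of bta-miR-335 and bta-miR-296 were the same under all 13 alternatives run on them, and bta-miR-483 was not called under the 12 that kept it. With the replicate block the log2 fold changes were -4.23, -2.39 and 0.74, respectively, and 38 miRNAs were called higher and 33 lower. The block left the ratio of bta-miR-335 to bta-miR-296 at a difference of -1.90 (exact sign flips over 3 pairs, p = 0.25, the smallest possible). Leaving out 1 library gave between -2.21 and -1.51 for it, and between -2.95 and -2.68 for the ratio of bta-miR-296 to bta-miR-6123. The number of miRNAs called lower ran from 22 without dominant replicate 1 to 38 without dominant replicate 3, and fewer libraries entered those fits. The cause of that range was not tested. Bta-miR-127, not called in any fit, changed sign to 0.13 with total-count scaling and to 0.030 with the replicate block, and ran from -0.34 to 0.42 with 1 library left out. Of the other named miRNAs, the block ended only the call of bta-miR-1434-5p (adjusted p = 0.11). Depth limits bta-miR-483, which had 12 and 8 reads in all. The dominant counts of bta-miR-335, at 11 to 30 reads, limit the precision of its fold change and of its ratio to bta-miR-296.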

Other observations

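Subordinate replicate 3 differed from the other subordinate libraries in several of the miRNAs described. It had the fewest reads of bta-miR-335 (304 against 550 and 679) and of bta-miR-296 (97 against 178 and 153). The same library had the most reads of bta-miR-127 (471 against 217 and 254) and of the stromal bta-miR-199a-5p (434 against 173 and 183). Bta-miR-199a-3p, bta-miR-199b, bta-miR-199c and bta-miR-214 of the stroma list also had the most reads there. Bta-miR-143 and bta-miR-145 did not, with 8569 and 269 reads against 10191 and 342 in subordinate replicate 2. In CPM the list sum was also larger in subordinate replicate 2, at 36786 against 35949. Without subordinate replicate 3, the log2 fold change of bta-miR-335 was -4.52 and that of bta-miR-296 was -2.57. Replicates were pools, and which follicles entered each pool was not analysed here.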
